A study of Homo sapiens with 2 samples.

Results

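Binding of Flag-tagged Evi1Δ324 along the major histone and tRNA gene cluster of the short arm of human chromosome 6 was described from the deposited ChIP-seq peak list. The members are the peaks on chromosome 6 whose midpoint lies from position 26100000 to 29000000 in build hg18, all of them in band 6p22.1. They number 27 of the 6943 peaks in the list. The stretch was chosen by its position and because a high number of peaks there was already known, so its peak density is given as a description. Inside it, the limits given for the histone genes define a first histone block from 26100000 to 26400000 and a second from 27200000 to 28000000. The stretch between the blocks and the remainder above the second block complete the region. Lengths of 2.9 Mb to either side, equal to that of the region, served as the lower and the upper flank.

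The chromatin came from SKOV-3 cells, an established ovarian carcinoma line, transfected with a pCMV plasmid for Flag-Evi1Δ324 and harvested 3 days later, so that the protein was expressed from a viral promoter and not from its own gene. Precipitation used the Flag M2 antibody. There was 1 ChIP library and 1 input library, both from transfected cells, and the peak list of the ChIP library was analysed. With 1 library and no second condition no test between samples was possible, and every interval below covers counting error only.

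EVI1, encoded by MECOM, is a zinc finger transcription factor with separate zinc finger domains, of which the N-terminal one is known to recognise GATA-like sequences and the C-terminal one ETS-like sequences. The Δ324 form is known as a splice form that lacks part of the N-terminal zinc finger domain. The replication-dependent histone genes supply the H1, H2A, H2B, H3 and H4 proteins that package newly copied DNA. They are transcribed in S phase, have no introns, and give mRNAs that end in a stem-loop in place of a poly(A) tail. tRNA genes are transcribed by RNA polymerase III from promoter elements inside the gene.

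The make-up of the cluster was read from the RefSeq gene order on chromosome 6 (GRCh38.p14), which gives names and neighbours but no hg18 positions, so no peak was assigned to a gene. RefSeq lists 55 protein-coding genes of the 5 histone classes on chromosome 6, without a limit of position. They are 6 for the linker histone H1, 12 for H2A, 15 for H2B, 10 for H3 and 12 for H4. In gene order, H2AC1 and H2BC1 come first and lie apart from the rest, with 4 other protein-coding genes before H1-1. Whether H2AC1 and H2BC1 fall in the region or in the lower flank was not known here. A long run goes from H1-1 to H4C8. Between H4C8 and H2BC11, where the histone genes pause, RefSeq has 9 other protein-coding genes, 6 of them of the butyrophilin (BTN) family of immune regulators, and 47 tRNA genes. A further 51 tRNA genes lie between H2AC12 and H2BC13, where the histone genes pause again. Of the 21 histone genes from H2BC11 onward, 16 come after this later pause, and the last in order is H2BC17. By class, the first and last genes in order are H1-1 and H1-5, H2AC1 and H2AC17, H2BC1 and H2BC17, H3C1 and H3C12, and H4C1 and H4C13. Chromosome 6 carries 155 of the 443 nuclear tRNA genes listed (34.99%), of which 31 are for alanine, 17 for serine and 15 for isoleucine.

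Promoter sequences were read to describe the histone genes, and not the DNA under the peaks, whose sequence was not read. The table of RefSeq promoters held 50 of the 55 histone genes and not H2AC12, H3C11, H3C12, H4C1 or H4C3. Motifs were searched on both strands in the 250 bases before and the 50 bases after the gene start. CCAAT and TATAAA were searched because they are known promoter elements of histone genes, so their high shares follow that choice and are no new result. CCAAT was found in 43 of the 50 (86.0%) against 35.7% of 27305 promoters. It was in each of the 6 promoters of H1, the 11 of H2A, the 15 of H2B and the 8 of H3, and in 3 of the 10 of H4. TATAAA was found in 33 (66.0%) against 12.0%. Neither GACAAGATA nor GAAGATGAG, letters known from the N-terminal and C-terminal zinc finger domains, was found in any of the 50, which says only that these letters are not in these windows, and their shares of all promoters were 0.110% and 0.348%. The shorter GATAAG was found in 3 of 50 (6%) against 6.36% of all. These were the promoters of H4C2, H2AC4 and H3C10. The match of H2AC4 begins at base 35 after the gene start. The upstream 250 bases of H4C2 and H3C10 are printed because they hold the other GATAAG matches, a choice made after the matches were seen. H4C2 is also the first H4 gene in order in the table. They run 5′ to 3′ in the direction of the gene, on the minus strand of chromosome 6 for H4C2 and the plus strand for H3C10. Capitals mark GATAAG or CCAAT or TATAAA, also where the reverse complement is read.
H4C2: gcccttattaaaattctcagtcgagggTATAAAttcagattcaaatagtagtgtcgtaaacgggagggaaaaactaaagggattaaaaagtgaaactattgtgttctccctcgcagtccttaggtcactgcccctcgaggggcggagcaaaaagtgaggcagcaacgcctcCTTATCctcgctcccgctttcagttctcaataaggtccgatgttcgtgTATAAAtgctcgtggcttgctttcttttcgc
H3C10: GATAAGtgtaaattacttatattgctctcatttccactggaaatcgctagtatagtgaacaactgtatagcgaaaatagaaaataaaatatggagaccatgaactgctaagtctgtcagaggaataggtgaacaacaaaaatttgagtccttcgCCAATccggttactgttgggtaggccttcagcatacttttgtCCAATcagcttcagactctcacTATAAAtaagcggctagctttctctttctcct
In H4C2 the GATAAG match, printed as its reverse complement CTTATC, begins 79 bases before the gene start and a TATAAA 31 bases before it. In H3C10 the GATAAG begins at the first base of the window, 250 bases before the start, and a TATAAA begins 32 bases before it. A match describes the letters only and is not a site. GACAAGATA and GATAAG are letters of the N-terminal zinc finger domain, of which the Δ324 form lacks part. The histone promoters had a median GC content of 42.3%, against 58.3% for all promoters. Of the 50, 9 (18%) held a run of 30 bases found again at another position among all promoters, on either strand, against 5.96% of all promoters. That position could lie in the same promoter or in the same cluster. Some short tags from histone genes could thus match more than 1 place.

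The density of peaks was highest in the first histone block. It held 9 peaks in 0.3 Mb, or 30 per Mb (exact Poisson 95% interval 13.7 to 56.9). The second histone block held 8 in 0.8 Mb, or 10 per Mb (4.32 to 19.7). The stretch between the blocks had 5 peaks in 0.8 Mb (6.25 per Mb, 2.03 to 14.6). The remainder of the region had 5 in 1 Mb (5 per Mb, 1.62 to 11.7), a ratio of 2.06 to all placed sequence that fell to 0.827 among peaks above the list's median fold, where 1 peak was left. The interval of the first block lay above that of the remainder and overlapped those of the second block and of the stretch between them. Such intervals take peaks as independent, while 6.78% of peaks in the rest of the list had the next midpoint within 2 kb. The region was chosen for its peaks, so comparing intervals here and below describes the densities and is no test. The whole region came to 9.31 per Mb (6.14 to 13.5), where the rest of chromosome 6 had 2.88 per Mb (2.62 to 3.15) and chromosomes 1 to 22 and X together had 2.43.

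Joined, the blocks held 17 peaks at 15.5 per Mb (9.003 to 24.7), and the parts of the region outside them held 10 at 5.56 per Mb (2.66 to 10.2). A block is a stretch of positions that may hold long parts without histone genes. These densities therefore do not compare histone genes with other genes. The lower flank held 7 peaks at 2.41 per Mb (0.970 to 4.97), close to the level of all placed sequence. Its interval lay below that of the blocks and overlapped that of the parts outside them. The upper flank held 1 peak, or 0.345 per Mb (0.00873 to 1.92). Seen from the list, at least 9 peaks occurred in 0.140% of 9306 tiled windows of 0.3 Mb, and at least 8 in 1.46% of 3422 windows of 0.8 Mb. Counts of 5, as in the stretches outside the blocks, were common, being reached in 7.13% of windows of 0.8 Mb and 12.0% of windows of 1 Mb. At least 27 peaks occurred in 0.452% of 884 windows of 2.9 Mb, which were 4 windows, at 11q13.1, 12q24.31 and 19p13.3. The region was picked for its peaks and the tiled windows were not, so these shares place it and do not test it.

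**Figure D1:**
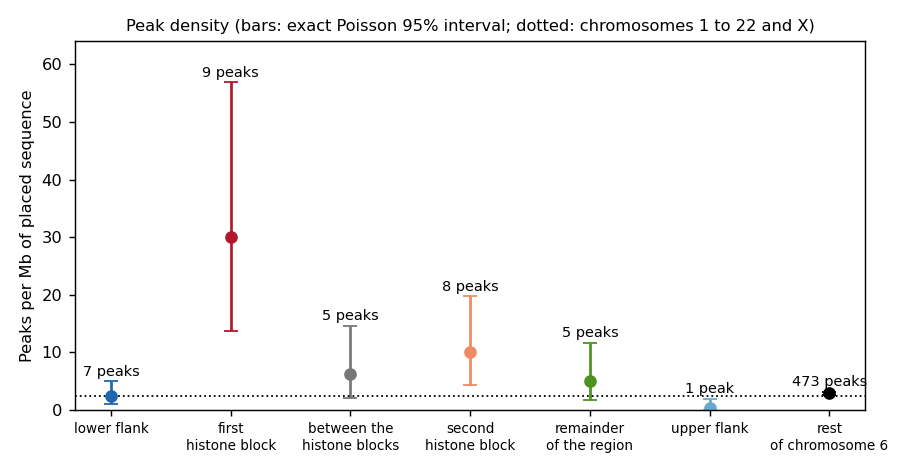
Peaks per Mb of placed hg18 sequence (vertical axis) for each stretch, with exact Poisson 95% intervals and the number of peaks; the dotted line is the 2.43 per Mb of chromosomes 1 to 22 and X. The first histone block stands at 30 per Mb and the upper flank at 0.345.

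The peak of highest fold in the region lay in the first block, at chr6:26266298-26266635. The fold is the authors' own value for a peak, read as its height over a background. This peak had a fold of 24.51 and 18 tags over 338 bp, the most tags and the largest width of all 27. The fold of 24.51 was shared by chr6:26314320-26314470, which had 8 tags over 151 bp. Another peak, chr6:26361666-26361793, had a fold of 22.85 with 6 tags. These were the only members with a fold of 20 or more. They made up 3 of 9 peaks of the block (33.3%, exact binomial 95% interval 7.49 to 70.1) and 3 of 27 in the region, where the share over the whole list was 11.6%. The share in the region was thus close to that of the list.

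The other 6 peaks of the first block had folds of 12.53 to 19.61. At its lower edge, chr6:26128954-26129061 had a fold of 19.61 and 6 tags. A neighbouring pair, chr6:26231755-26231963 and chr6:26234483-26234684, had 8 tags each and folds of 15.53 and 19.53, with midpoints 2.72 kb apart. This was the shortest distance between members. Next to the peak of 18 tags lay chr6:26275027-26275128 (fold 13.97) and chr6:26280716-26280834 (fold 19.61), each with 5 tags, the lowest number in the list. Midpoints of these 3 followed each other at 8.61 and 5.70 kb. The last peak of the block, chr6:26381542-26381647, had a fold of 12.53 and 5 tags.

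The run of peaks did not stop at the block's upper limit. The next members, chr6:26421103-26421248 (fold 17.80, 7 tags) and chr6:26431241-26431301 (fold 17.30, 5 tags), lay just above it. The latter was the narrowest member at 61 bp. Together 10 peaks from 26231755 to 26431301 fell within 199.5 kb, with a median fold of 18.7 and 75 tags in all. After a distance of 246 kb came chr6:26676984-26677096 (fold 11.04, 6 tags) and chr6:26704865-26705013 (fold 14.53, 8 tags). A longer interval of 390 kb followed. The stretch ended with chr6:27095335-27095466 (fold 12.53, 5 tags).

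In the second histone block the peaks were gathered at its lower end. There, 6 of the 8 lay within 163 kb, from 27208298 to 27371600, with a median fold of 15.4. The highest fold of the block, 19.61, was at chr6:27324984-27325092 with 5 tags. The most tags, 8, were at chr6:27208298-27208496 (fold 15.63). The other 4 of this group had 5 to 7 tags and folds of 14.25 to 15.63. After 392 kb, the longest distance between members, came chr6:27763258-27763394 with a fold of 10.38, the lowest in the region. The block closed with chr6:27900001-27900129 (fold 12.11). Which of its peaks lie in the later pause of the histone genes is not known, since no hg18 gene positions were used.

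Above the second block the median fold was 12.72, below the list's 14.7. The 5 peaks of the remainder had 5 or 6 tags each and folds of 10.38 to 16.15, the highest being chr6:28425877-28425987. The last member, chr6:28618635-28618738, had a fold of 12.72 and 6 tags and was the last peak below the region's upper limit.

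**Figure D2:**
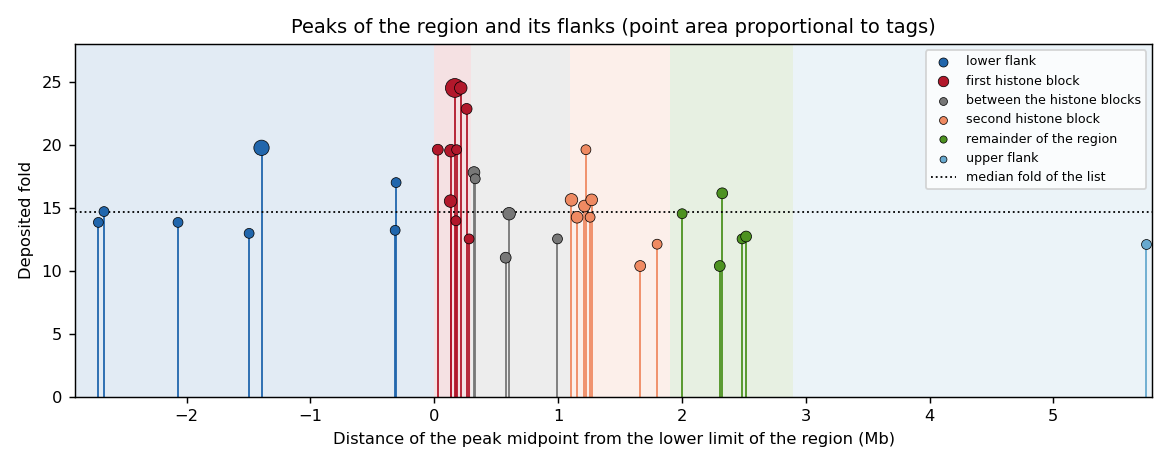
Deposited fold (vertical axis) of every peak of the region and its flanks against the distance of its midpoint from the lower limit of the region in Mb; the area of a point is proportional to tags, shading marks the stretches, and the dotted line is the list's median fold of 14.7. The 3 peaks with a fold of 20 or more lie in the first histone block, and the upper flank is empty but for 1 peak near its far end.

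The median fold was highest in the first histone block. Its lowest, median and highest folds were 12.53, 19.61 and 24.51, against 10.38, 14.7 and 19.61 in the second block. Folds of 19.61 and 24.51 are 4 and 5 times a step by which many folds are spaced, given below. Between the blocks the values were 11.04, 14.53 and 17.80, and in the remainder 10.38, 12.72 and 16.15. The stretches overlapped in fold, and 7 of 9 peaks of the first block exceeded the list's median, where 49.7% of the list did. In the second block 4 of 8 exceeded it, between the blocks 2 of 5 and in the remainder 1 of 5. Few tags limit how high a fold can be, so peaks were also set beside others of like support. With 8 to 19 tags, the 4 peaks of the first block had a median fold of 22.02, against 16.2 for 772 such peaks of the list. With 6 to 7 tags its 2 peaks had a median of 21.2, against 14.9 for 1832. With 5 tags, the 3 peaks of the block had 13.97 as their median, against 14.7 for 4130 peaks. The median of the block was above that of the list in its peaks of 6 tags or more and below it in those of 5.

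Tags per peak were few throughout, as in the whole list. The 27 members held 178 tags together, with a median of 6 and a range of 5 to 18. The lowest number, 5, was found in 10 of the 27 (37.0%, exact binomial 95% interval 19.4 to 57.6), where the share in the list was 59.5%. In the flanks it was found in 7 of 8. At least 8 tags were reached by 6 of 27 (22.2%, interval 8.62 to 42.3), against 14.1% of the list, and 4 of these 6 lay in the first block. Outside both blocks 1 of 10 peaks had 8 tags or more.

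Width and tags per length were near those of the list. The median width was 129 bp (61 to 338) against 126 bp in the list, and the 2 blocks had medians of 128 and 133 bp. Tags per kb of peak had a median of 46.9 against 44.6 in the list. A background index, the tags per kb of a peak divided by its fold, had a median of 3.01 and a range of 2.03 to 4.81, where the list's median was 2.81. Its median was 2.17 in the first block, 3.10 in the second, 3.70 between them and 3.35 in the remainder. The index is computed from the fold, so its low value in the first block is not a result separate from the higher folds there. Copy number of this stretch in SKOV-3 cells was not examined. On the step of 4.902 by which many folds of the list are spaced, 5 of 27 members (18.5%, interval 6.30 to 38.1) fell within 0.012 of a whole multiple, against 30.2% of the list, and 4 of the 5 were in the first block. Over the 27 members fold and tags had a Spearman's rho of 0.371, and tags and width one of 0.715; the points come from 1 library and are no replicates. In the list the former was -0.0369 and the latter 0.656.

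**Figure D3:**
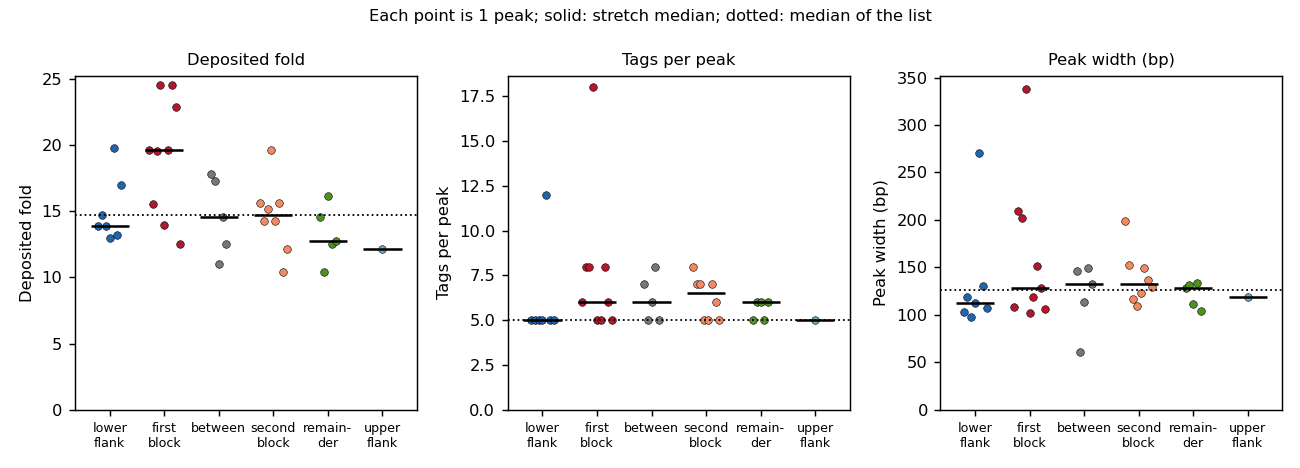
Deposited fold, tags and width in bp (vertical axes) of each peak in the 6 stretches; a solid bar is the median of the stretch and the dotted line that of the list. The first histone block has the highest median fold, 19.61, and the peak with 18 tags and 338 bp.

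Neighbouring members were 2.72 to 392 kb apart, with a median of 36.7 kb. In the first block the median was 25.9 kb, in the second 45.2 kb and between the blocks 137 kb. It was 96.4 kb in the remainder and 337 kb in the lower flank. The next midpoint lay within 50 kb for 16 of 27 members (59.3%, exact binomial 95% interval 38.8 to 77.6), where the share on chromosomes 1 to 22 and X was 20.3%. Within 10 kb it was 3 of 27 (11.1%, interval 2.35 to 29.2) against 9.57%, and all 3 were in the first block. Within 2 kb it was 0 of 27 (interval 0 to 12.8), against 6.78% in the rest of the list. Density and the share within 50 kb are measures of the same positions, and neither is evidence for the other.

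Other dense places held closer pairs. Each of the 13 windows of 0.3 Mb with at least 9 peaks contained at least 1 pair of midpoints within 2 kb. After peaks at most 1 kb apart were merged, 2 of the 13 windows still had 9 or more, or 0.0215% of all 9306 windows. The first histone block kept its 9, as it must, since no 2 of its midpoints are closer than 2.72 kb. The remaining pair of windows were at 19p13.3, where 25 peaks became 9, and at 4p11, next to a centromere, where 11 became 10. At 2p11.2 the fall was from 13 to 1. This comparison was chosen after seeing the spacing of the members. Of the 29 windows of 100 kb that make up the region, 15 (51.7%) had at least 1 peak, against 19.4% of 28181 such windows tiled over the placed sequence.

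**Figure D4:**
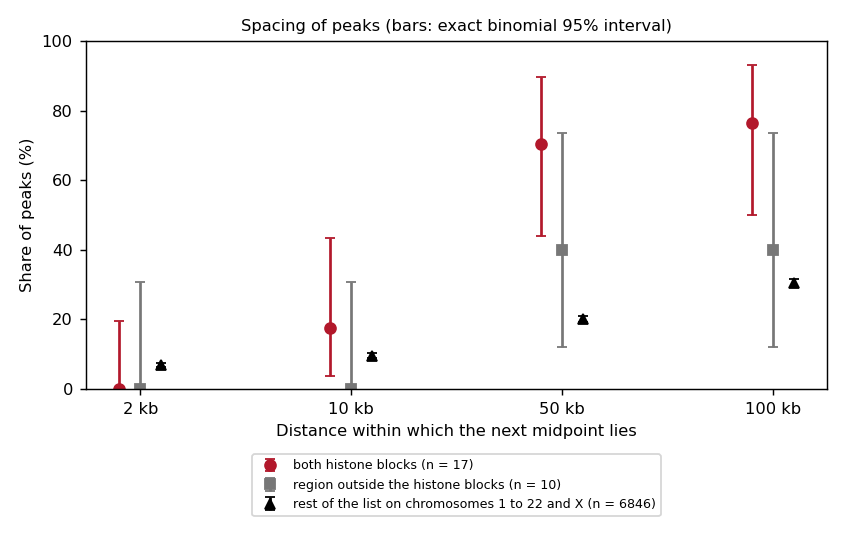
Share of peaks in percent (vertical axis) whose next midpoint lies within 2, 10, 50 or 100 kb, for the histone blocks, the region outside them and the rest of the list, with exact binomial 95% intervals. Within 2 kb the region has 0 peaks, and within 50 kb the blocks have 12 of 17 (70.6%).

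The 2 sides of the region differed in their peaks. Below the lower limit, the nearest peak was chr6:25792164-25792270 (fold 17, 5 tags), 337 kb from the first member, with another 7.66 kb before it. The lower flank's 7 peaks had folds of 12.97 to 19.76, and 6 of them had 5 tags. Above the last member no peak was found from 28618739 to 31846998, a length of 3228 kb that is set by the peaks at its ends. It ends at chr6:31846999-31847117 (fold 12.11, 5 tags), the first peak above the region's upper limit and near the far end of the upper flank, and the one after it was 1647 kb further on. Intervals of at least this length were 38 of 6660 between neighbouring peaks of 1 contig (0.571%), and this was the only one on chromosome 6. Windows of 2.9 Mb with at most 1 peak made up 9.16% of all.

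The upper flank leads into the major histocompatibility complex, which carries genes of antigen presentation. Build hg18 holds this complex again in alternative haplotype sequences of chromosome 6. The list had 3 peaks on the cox haplotype (4.73 Mb) and 2 on the qbl haplotype (4.25 Mb), each with 5 tags and folds of 14.53 to 19.61. That is 0.557 per Mb over both. How tags that match several sequences were treated is not given in the sources used here, and its part in the low count was not tested.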

How the data were processed

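ChIP and input DNA of transfected SKOV-3 cells were sequenced, and the ChIP peak list was analysed. Positions are in hg18, per the submitters' processing notes. Which aligner and peak caller were used is not given in the sources used here, nor are thresholds. The deposited list has no header. Its first value per peak was read as a fold, a ratio made by the authors, and its second as a count of tags that the authors left unscaled; both readings come from the values. Sequencing depth is unknown. Positions are printed from 1.

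Peaks were assigned by midpoint. Lengths are placed contigs from IRanges 2.36.0, and bands are from circlize 0.4.16 under R 4.3.3; Python 3.11.15, pandas 2.3.3 and scipy 1.17.1 were used. Intervals are exact Poisson for counts and Clopper-Pearson for shares, at 95%. No p-value was computed. Counting and merging were tested on simulated data. Gene names, order and promoters are from RefSeq (GRCh38.p14), by symbol. The members, gene lists and motifs were chosen with earlier results of these data known. Peaks named were the 5 of highest fold, the 5 of most tags, pairs within 10 kb, the widest, the narrowest and those at the limits; the others were named to account for the members, after their values were seen. Histone promoters to be printed were those with GACAAGATA or GAAGATGAG, and otherwise that of the first H4 gene.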

Additional observations from a re-analysis of the deposited data

Results flagged for a closer look

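The alternative haplotype sequences of chromosome 6 entered no comparison of the stretches. They held 5 peaks, or 0.557 per Mb, which is more than none but below the 2.43 per Mb of chromosomes 1 to 22 and X. All 5 had 5 tags, the lowest number in the list, and no control precipitation was analysed beside them.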

How the results depend on the processing

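Of 111 comparisons of a value with an alternative, 98 stayed within the 95% interval of the value or, for counts of windows, within 1.5 times, and 13 moved beyond it. No value was called, so none could lose a call. Densities here are ratios to the density of chromosomes 1 to 22 and X in the same set of peaks. With 6 tags or more the ratio of the whole region was 6.02 against 3.84 for all peaks. That of the lower flank was 0.354 (1 peak) against 0.995 (7 peaks), and that of the upper flank 0. The ratio of the first histone block, 12.4 for all peaks, was 20.5 with 6 tags or more and 19.3 above the median fold, both within its wide interval. Ratios crossed 1 in the remainder, from 2.06 to 0.827 (1 peak) above the median fold, and in the lower flank. The lower flank rose to 1.06 with merging within 1 kb, its 7 peaks unchanged, and to 1.03 (1 peak) among peaks of at least 8 tags. At that minimum, which was added after seeing the data, the whole region was at 6.21, the first histone block at 40.0 (4 peaks), and the remainder and the upper flank at 0. The upper flank was also at 0 above the median fold and with flanks of 1.45 Mb. Merging peaks within 1 or 10 kb, assigning peaks by any overlap, and widening or narrowing the blocks by 100 or 50 kb kept each density ratio within its interval. Merging within 1 kb and assignment by overlap left the peaks of every stretch the same, since none lie that close or cross a limit. The positions fixed the outcome of these settings, so their part of the 98 shows no stability. The share with the next midpoint within 10 kb was 33.3% in the first block, and 0 in the second and outside the blocks; within 50 kb the shares were 88.9%, 50.0% and 40.0%, and within 2 kb 0 in the first block, by construction of the distance. No median of width, tags or fold moved beyond its interval. For the other values that moved, the cause was not tested. Few peaks per stretch and few tags per peak limit every value. No paired analysis was possible because the series has 1 ChIP library.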
